A study of Mus musculus with 6 samples.

Results

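Interferon-stimulated genes were examined in the cerebral cortex of senescence-accelerated mice. Interferons are secreted signals of the antiviral response. When they bind their receptors on a cell, JAK kinases phosphorylate STAT proteins, which join IRF9 and switch on a large battery of genes through a DNA element called the interferon-stimulated response element (ISRE), while type II interferon acts mainly through STAT dimers on the GAS element. The proteins encoded by these genes sense foreign nucleic acids, block translation and viral entry, and feed back on the signal itself. In the brain they are made by microglia, endothelial cells, astrocytes and neurons, and a low tone of the response is known to accompany ageing. The genes were chosen by name, as a list of 35 symbols, and every probe set of the array whose gene symbol entry holds 1 of them was taken. Such a set combines several short probes for a transcript. All 35 members were found, among 22527 gene symbols, and were represented by 57 of the 45077 probe sets.

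The mice were males, given as 16 weeks old before acclimatization and treatment. They received their treatment by mouth for 30 days and then through 8 days of behavioral tests. The brains were taken after the tests, at an age that the study does not state. SAMP8, a strain with accelerated senescence, received sugarcane top ethanolic extract (STEE) at 20 mg/kg (labelled SAMP8 + STEE, here STEE-fed SAMP8) or water (SAMP8 + Water, here SAMP8 control). SAMR1, the related strain that resists accelerated senescence, received water (SAMR1 + Water), and no SAMR1 group on the extract was among the samples. All mice were housed singly, and the study gave BrdU, a label of dividing cells, in the drinking water during part of the treatment. There were 2 mice in each of the 3 groups, and bulk cortex was hybridised, so that a change in the number of cells of a type and a change in RNA per cell cannot be told apart. The values are the authors' mean log2 signals of each group. Values of single mice were not analysed here, so the spread between the mice is not known, no test was made, and every difference below is a description of these group means. A member was called higher or lower when the means differed at least 1.2-fold, which is 0.263 on the log2 scale. Where a gene had several probe sets, the one with the highest mean signal was read, and signals of different genes are not compared with each other, since probes differ in brightness. Rounding of the deposited means allows an error of 0.01 in a difference.

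Of the markers of the labelled tissue, *Snap25*, a synaptic vesicle fusion protein, was at 11.38 in SAMR1, 11.54 in SAMP8 control and 11.58 with STEE. The brightest probe sets of the members averaged from 2.84 (*Mx1*) to 6.17 (*Irf3*) over the groups, and the group means of all probe sets ran from 1.98 to 12.18. The median signal of all probe sets was 4.15, and 18 of the 35 members lay under it. Whether the transcripts of these dim members were detected was not tested.

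Promoter sequences show what many of these genes share beyond their name. RefSeq promoter entries (build GRCm38.p6, strain C57BL/6J, 250 bases before to 50 after a transcription start) were matched by symbol for 28 of the 35 members; *Dhx58*, *Iigp1*, *Mx1*, *Mx2*, *Parp14*, *Usp18* and *Zbp1* had no entry. They were searched for the ISRE core on both strands, that is GAAA, any 2 bases and GAAA, or TTTC, any 2 bases and TTTC. It was present in 17 of the 28 members (60.7%), against 1079 of 27025 genes in the whole promoter set (3.99%). Of these 17 members, 12 had a match before the start and 5 only after it, and 9 had more than 1 match, some of which overlap. The stretches below are shown because they carry the shared element, in capitals, in members of several kinds: the tetratricopeptide effectors *Ifit1* and *Ifit3*, the ubiquitin-like modifier *Isg15*, the guanylate-binding proteins *Gbp3* and *Gbp2*, the tethering factor *Bst2*, the immunity-related GTPases *Irgm1* and *Igtp*, the 2-5A synthetase *Oas1a* and the radical SAM enzyme *Rsad2*. Each is written 5′ to 3′ on the strand of its gene, and bases are counted back from the start.

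Ifit1, chr19:34640739-34640888, plus strand, -150 to -1: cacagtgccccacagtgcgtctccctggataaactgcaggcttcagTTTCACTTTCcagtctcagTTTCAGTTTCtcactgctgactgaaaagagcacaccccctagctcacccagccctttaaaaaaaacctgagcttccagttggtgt
Ifit3, chr19:34583349-34583468, plus strand, -180 to -61: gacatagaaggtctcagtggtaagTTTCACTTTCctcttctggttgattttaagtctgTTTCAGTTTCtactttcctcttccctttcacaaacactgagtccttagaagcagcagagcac
Isg15, chr4:156200859-156200918, minus strand, -100 to -41: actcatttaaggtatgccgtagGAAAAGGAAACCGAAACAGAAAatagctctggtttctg
Gbp3, chr3:142559974-142560033, plus strand, -70 to -11: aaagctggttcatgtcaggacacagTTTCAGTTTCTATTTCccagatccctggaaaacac
Gbp2, chr3:142620583-142620642, plus strand, -80 to -21: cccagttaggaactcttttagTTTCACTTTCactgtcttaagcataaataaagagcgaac
Bst2, chr8:71537563-71537622, minus strand, -150 to -91: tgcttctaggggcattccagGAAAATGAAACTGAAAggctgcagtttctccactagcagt
Irgm1, chr11:48871421-48871480, minus strand, -60 to -1: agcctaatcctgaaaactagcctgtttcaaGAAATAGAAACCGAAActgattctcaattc
Oas1a, chr5:120907526-120907585, minus strand, -60 to -1: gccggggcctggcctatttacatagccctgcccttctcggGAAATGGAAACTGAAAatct
Igtp, chr11:58199496-58199555, plus strand, -60 to -1: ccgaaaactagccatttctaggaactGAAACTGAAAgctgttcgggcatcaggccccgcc
Rsad2, chr12:26456543-26456602, minus strand, -150 to -91: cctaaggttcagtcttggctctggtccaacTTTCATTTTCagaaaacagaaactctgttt

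In *Ifit1* and *Ifit3* the element stands as a pair of separate matches, in *Isg15* as 3 overlapping matches and in *Bst2*, *Gbp3*, *Irgm1* and *Oas1a* as 2 overlapping ones. The GAS core TTCNNNGAA, which reads the same on both strands, was found in 9 of the 28 members (32.1%), against 2582 of 27025 genes (9.55%). *Bst2*, *Eif2ak2*, *Ifitm3*, *Igtp* and *Oas1a* had both elements, and the GAS matches of *Bst2* and *Ifitm3* overlap an ISRE match. In *Irf1*, the transcription factor that answers type II interferon directly, only the GAS core was found, 90 bases before the start. *Ifi35*, *Ifit2* and *Isg20* likewise had the GAS core alone. Neither element was in the windows of *Ifi44*, *Irf3*, *Irf7*, *Irf9*, *Oasl2*, *Trim25* and *Xaf1*. A match in these letters is not a measured binding site, and the sequences are those of the reference strain, not of SAMP8 or SAMR1.

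**Figure D1:**
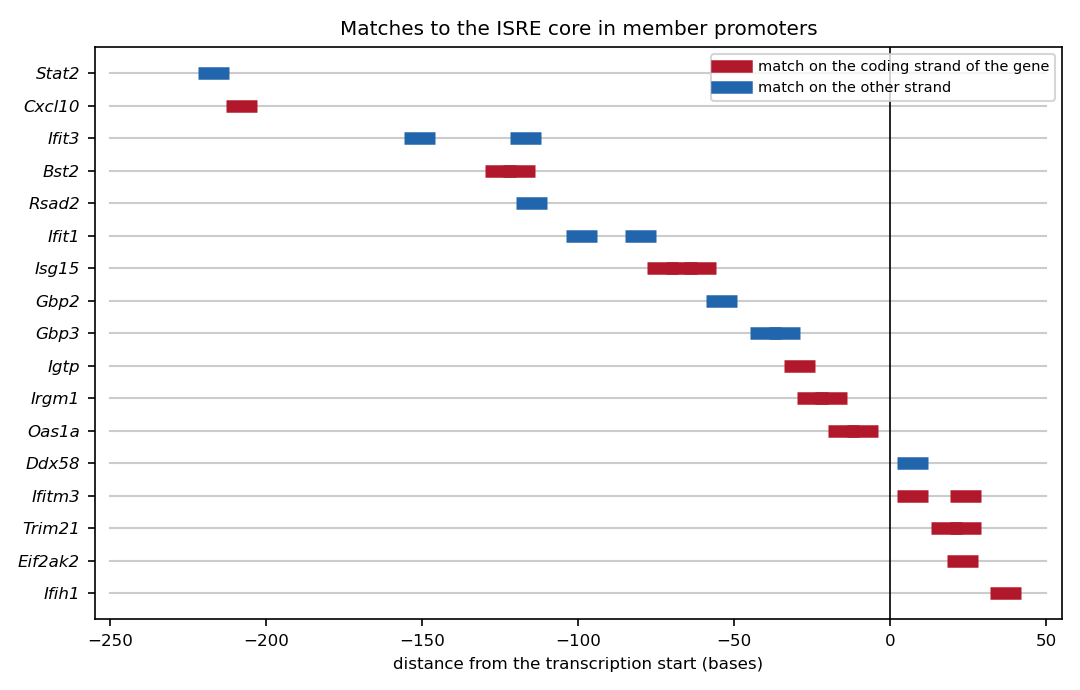
Positions of the ISRE core matches in the promoters of the 17 members that hold one; the horizontal axis is the distance from the transcription start in bases, each grey line is the searched window and each block a match, coloured by strand. Matches of 12 members lie before the start, and those of *Ddx58*, *Eif2ak2*, *Ifih1*, *Ifitm3* and *Trim21* lie after it.

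The first comparison, SAMP8 control vs. SAMR1, asks how the senescence-prone strain differs from its normally ageing relative. Most members had a higher mean in SAMP8 control. The difference was above 0 for 31 of the 35 members and below 0 for 4, with a median of 0.15 on the log2 scale, whereas 47.1% of all genes were above 0 and their median was 0. At least 1.2-fold higher were 8 members (22.9%), namely *Ifit1*, *Ifit3*, *Irf9*, *Ifitm3*, *Oasl2*, *Gbp3*, *Usp18* and *Trim25*, against 3.68% of all genes. No member was at least 1.2-fold lower, against 3.19% of all genes. Among genes under a mean signal of 5, 7 of 30 members were at least 1.2-fold higher, against 1.56% of such genes, and 0 lower, against 1.9%. Under the median signal of all probe sets lay 4 of the 8 higher members, *Ifit1*, *Oasl2*, *Gbp3* and *Usp18*. The differences of the members ran from -0.17 to 0.58, the highest being that of *Ifit1* (1.49-fold). No member reached 1.5-fold, which 0.79% of all genes did, and among 35 members a count of 0 is near that share.

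**Figure D2:**
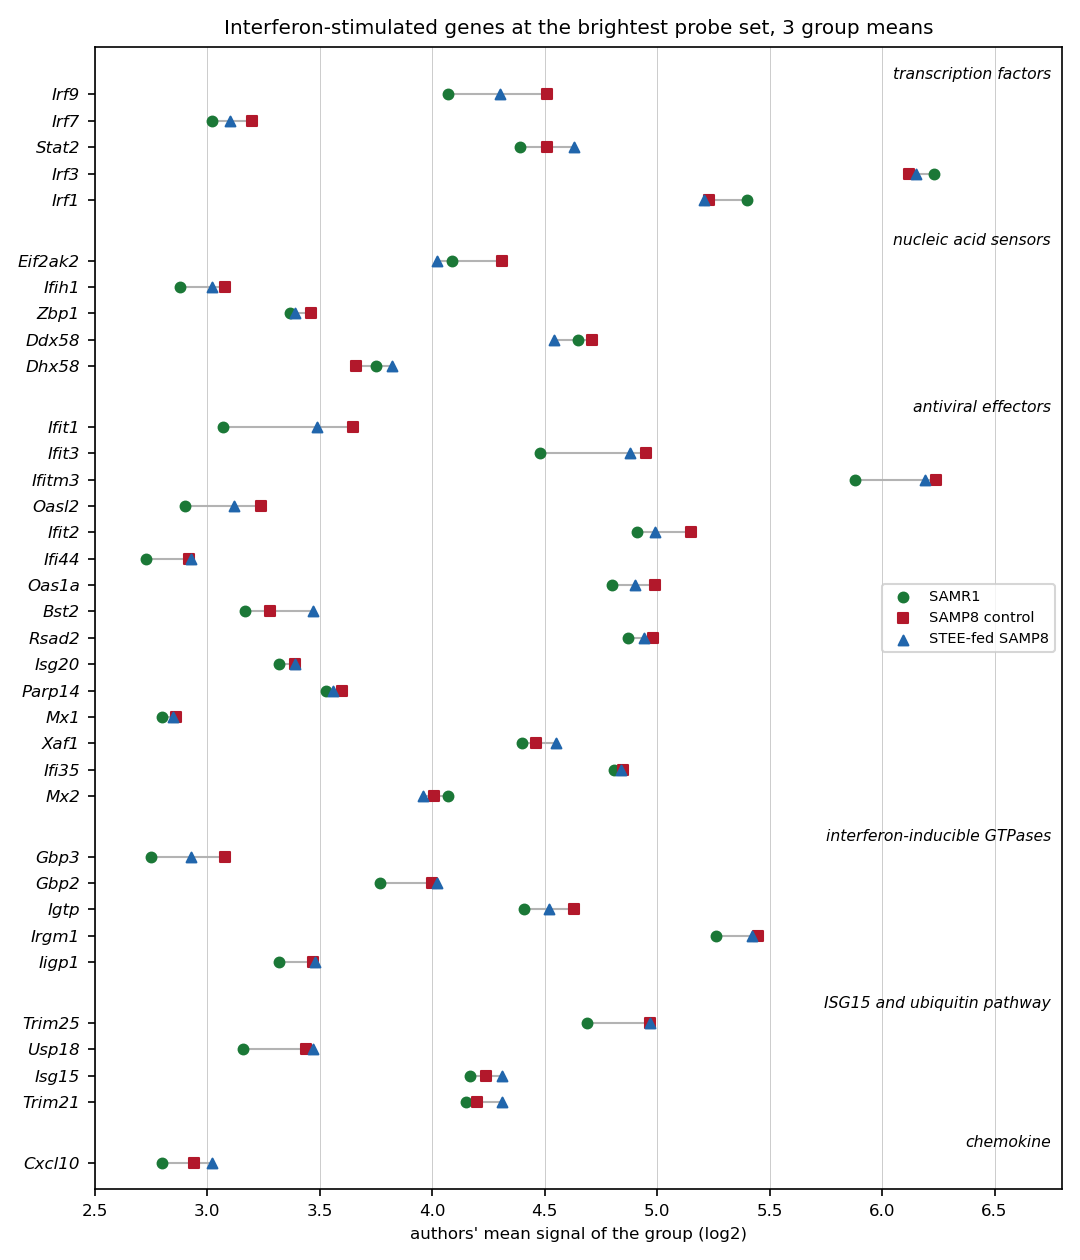
Mean log2 signal of SAMR1 (circles), SAMP8 control (squares) and STEE-fed SAMP8 (triangles) for the 35 members at their brightest probe set, ordered by role and by the strain difference; grey lines join the lowest and the highest group mean, and no error is drawn since no value of a single mouse was used. In 31 members the square lies to the right of the circle.

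**Figure D3:**
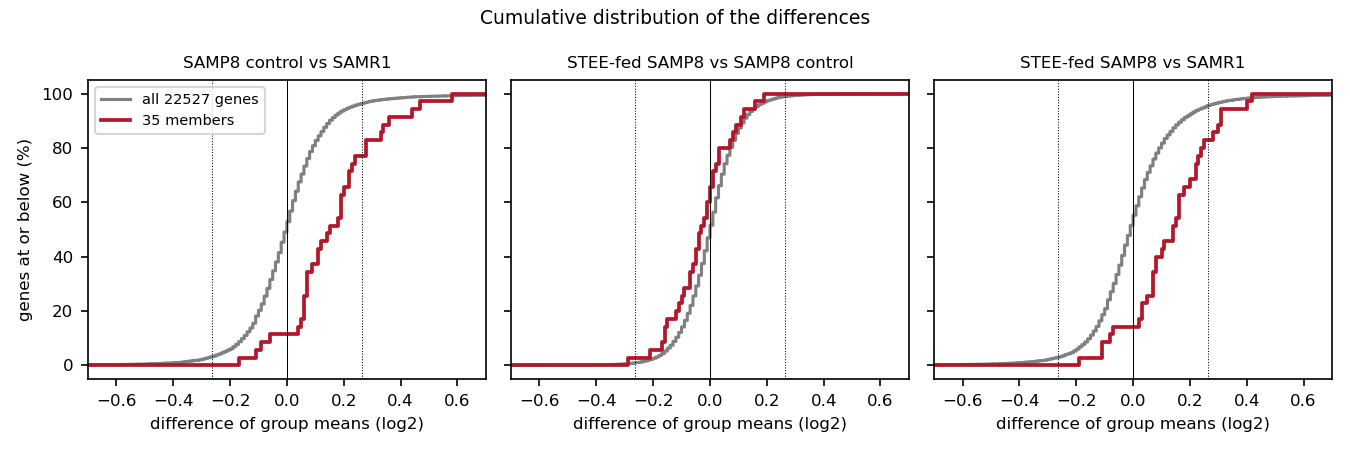
Share of genes (vertical axis, %) at or below a given difference of group means (horizontal axis, log2) for the 35 members in red and all 22527 genes in grey, in the 3 comparisons; dotted lines mark 1.2-fold. The red line lies to the right of the grey one for SAMP8 control vs. SAMR1 and STEE-fed SAMP8 vs. SAMR1, with member medians of 0.15 and 0.14.

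The 2 largest strain differences were those of antiviral effectors. *Ifit1*, which binds viral RNA that lacks the host's cap methylation, had a mean log2 signal of 3.07 in SAMR1, 3.65 in SAMP8 control and 3.49 with STEE. SAMP8 control was 1.49-fold above SAMR1, a difference of 0.58 that 0.808% of all genes equalled or exceeded. *Ifit3*, its partner in the IFIT complex, was at 4.48, 4.95 and 4.88 in the same order, a strain difference of 0.47 (1.39-fold). Both SAMP8 groups lay above SAMR1 for these genes. *Ifit2*, the neighbour of *Ifit3* on the chromosome in the RefSeq gene table, was at 4.91, 5.15 and 4.99, and its strain difference of 0.24 stayed under 1.2-fold.

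*Ifitm3*, a membrane protein that hinders viruses from leaving endosomes, was at 5.88 in SAMR1, 6.24 in SAMP8 control and 6.19 with STEE, a strain difference of 0.36 (1.28-fold). Of the 8 higher members, it alone had a mean signal above 5. *Oasl2*, a member of the oligoadenylate synthetase family, was at 2.90, 3.24 and 3.12, a strain difference of 0.34 (1.27-fold). The related synthetase *Oas1a* was at 4.80, 4.99 and 4.90, a strain difference of 0.19. Of the 15 antiviral effectors, 14 had a higher mean in SAMP8 control than in SAMR1, and the median difference was 0.11.

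The other effectors differed less between the strains. *Ifi44*, an inducible cytoplasmic protein, differed by 0.19 and *Rsad2* (viperin, which makes a chain-terminating nucleotide) and *Bst2* (tetherin, which holds budding virions on the cell) by 0.11. The exonuclease *Isg20* and the ADP-ribosyltransferase *Parp14* differed by 0.07, *Xaf1*, an antagonist of an apoptosis inhibitor, by 0.06 and *Ifi35* by 0.04. *Mx1*, a dynamin-like GTPase against influenza virus, was at 2.80, 2.86 and 2.85 in the same order of groups, and *Mx2* at 4.07, 4.01 and 3.96. *Mx2* was the effector with a lower mean in SAMP8 control. The RefSeq table of the reference strain lists both *Mx* genes as transcribed pseudogenes.

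Among the transcription factors, *Irf9* stood apart. It encodes the DNA-binding subunit of the complex that reads the ISRE, and its mean was 4.07 in SAMR1, 4.51 in SAMP8 control and 4.30 with STEE, a strain difference of 0.44 (1.36-fold) that 1.32% of all genes equalled or exceeded. *Irf7*, the amplifier of type I interferon production, was at 3.02, 3.20 and 3.10, a difference of 0.18, and *Stat2*, the partner of *Irf9*, at 4.39, 4.51 and 4.63, a difference of 0.12. Neither reached 1.2-fold. *Irf1* was at 5.40, 5.23 and 5.21 and *Irf3*, a latent factor activated by phosphorylation, at 6.23, 6.12 and 6.15, so that both had lower means in SAMP8 control, with differences of -0.17 and -0.11.

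The nucleic acid sensors were closer together. *Eif2ak2* (PKR), which halts translation upon binding double-stranded RNA, was at 4.09 in SAMR1 and 4.31 in SAMP8 control, a difference of 0.22, and *Ifih1* (MDA5), a sensor of long double-stranded RNA, at 2.88 and 3.08, a difference of 0.20. *Ddx58* (RIG-I), which recognises RNA with a triphosphate end, differed by 0.06, *Zbp1*, a sensor of Z-form nucleic acid, by 0.09 and *Dhx58* (LGP2), a regulator of RIG-I and MDA5, by -0.09. No sensor reached 1.2-fold between the strains.

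All 5 interferon-inducible GTPases, which attack the membranes around intracellular pathogens, had higher means in SAMP8 control, with a median difference of 0.22. *Gbp3* was at 2.75 in SAMR1, 3.08 in SAMP8 control and 2.93 with STEE, a strain difference of 0.33 (1.26-fold). *Gbp2*, separated from *Gbp3* by 1 protein-coding gene in the RefSeq table, was at 3.77, 4.0 and 4.02, a difference of 0.23. *Igtp* was at 4.41, 4.63 and 4.52, a difference of 0.22. *Irgm1*, the regulator of this family, was at 5.26, 5.45 and 5.42, a difference of 0.19, and *Iigp1* at 3.32, 3.47 and 3.48, a difference of 0.15.

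In the ISG15 and ubiquitin group, *Usp18*, the protease that removes ISG15 and restrains the type I receptor, was at 3.16 in SAMR1, 3.44 in SAMP8 control and 3.47 with STEE, a strain difference of 0.28 (1.21-fold). *Trim25*, a ubiquitin ligase that activates RIG-I, was at 4.69, 4.97 and 4.97, also a difference of 0.28. *Isg15* itself was at 4.17, 4.24 and 4.31, a strain difference of 0.07, at a probe set that also lists *Gm9706*. *Trim21*, an antibody receptor in the cytosol, differed by 0.05, and *Cxcl10*, a chemokine that draws T cells, was at 2.80, 2.94 and 3.02, a strain difference of 0.14.

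The strain difference was also read by promoter element. The 17 members with the ISRE core all had higher means in SAMP8 control than in SAMR1, with a median difference of 0.19 and 4 at least 1.2-fold higher. The 11 members whose windows lacked it had a median of 0.18, with 9 above 0 and 3 at least 1.2-fold higher, *Irf9*, *Oasl2* and *Trim25*. Of all genes, 3.68% were at least 1.2-fold higher in this comparison and 47.1% were above 0. For the 7 members without a promoter entry the median was 0.07. For STEE-fed SAMP8 vs. SAMR1, the median was 0.16 with the element and 0.08 without it. At least 1.2-fold higher were 4 of 17 and 1 of 11 members, against 4.44% of all genes. Between the SAMP8 groups, the medians of STEE-fed minus control were -0.05 with the element and -0.01 without it. These differences between the sets were not tested.

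Several members were read by more than 1 probe set, and these did not always agree. Of the 14 members with several probe sets, 7 had all of them higher in SAMP8 control (*Gbp2*, *Iigp1*, *Rsad2*, *Stat2*, *Trim21*, *Trim25* and *Xaf1*), 6 had probe sets in both directions, and *Zbp1* had 1 higher and 1 without a difference. The 3 probe sets of *Trim25* differed by 0.28, 0.14 and 0.08, the dimmer ones lying at 3.26 and 2.94 in SAMR1, 3.40 and 3.02 in SAMP8 control and 3.41 and 2.97 with STEE. For *Eif2ak2* the strain difference was 0.22 at the brightest probe set, -0.15 at the second (3.89, 3.74 and 3.78) and -0.32 at the third (2.85, 2.53 and 2.76), so that its direction depended on the probe set. The dimmer probe sets of *Irf3* were at 4.61, 4.75 and 4.66, at 4.20, 4.15 and 4.07 and at 3.09, 2.86 and 2.89, with strain differences of 0.14, -0.05 and -0.23 beside the -0.11 of the brightest. Over all 57 probe sets, 44 were above 0 and 11 below, with a median of 0.09. Of the 8 members at least 1.2-fold higher, 7 had a single probe set and could not be compared in this way. Genes with a near-identical copy, such as *Ifit3*, *Oas1a* and *Isg15*, may share probes with it, and their values are uncertain to that extent.

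**Figure D4:**
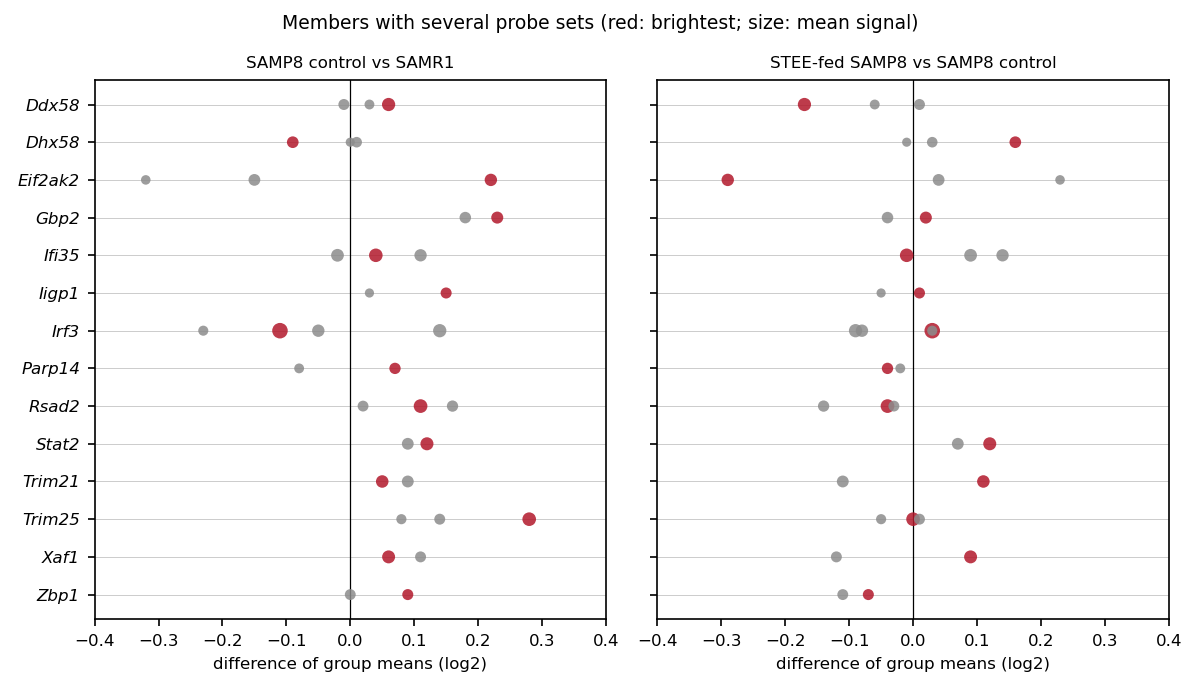
Difference of group means (horizontal axis, log2) of every probe set of the 14 members with several, for SAMP8 control vs. SAMR1 and STEE-fed SAMP8 vs. SAMP8 control; red points are the brightest probe set of a gene and the size of a point follows its mean signal. The probe sets of *Eif2ak2* lie on both sides of 0 in both panels, and those of *Trim25* are all above 0 between the strains.

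The second comparison, STEE-fed SAMP8 vs. SAMP8 control, asks what the extract does in the senescence-prone strain. The members differed little. The difference was above 0 for 12 of the 35 members, below 0 for 21 and at 0 for 2, with a median of -0.03 on the log2 scale, whereas 48.4% of all genes were above 0 and their median was 0. No member was at least 1.2-fold higher, against 1.1% of all genes, and 1 was at least 1.2-fold lower (2.86%), against 0.923% of all genes. Under a mean signal of 5, these were 0 and 1 of 30 members, against 0.805% and 0.73% of such genes. That member was *Eif2ak2*, at 4.31 in SAMP8 control and 4.02 with STEE, a difference of -0.29. Its other probe sets differed by 0.04 and 0.23, and the mean over its 3 probe sets was -0.01. This comparison shares the SAMP8 control mice with the strain comparison, so the signs in the pair are not independent.

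By role, 11 of the 15 antiviral effectors had lower means with STEE, with a median of -0.04, and 4 of the 5 sensors, with a median of -0.07. Of the transcription factors and of the GTPases, 3 of 5 each were lower. In the ISG15 and ubiquitin group 3 of 4 were higher and 0 lower, with a median of 0.05. Of all genes, 46.9% were below 0. Under a mean signal of 5, 56.7% of the members were below 0, near the 54.2% of such genes. *Ifit1* and *Ifit2* both differed by -0.16, *Oasl2* by -0.12 and *Oas1a* by -0.09. *Irf9* differed by -0.21, *Ddx58* by -0.17 and *Gbp3* by -0.15. In the other direction, *Bst2* was at 3.28 in SAMP8 control and 3.47 with STEE, a difference of 0.19, *Dhx58* at 3.66 and 3.82, a difference of 0.16, and *Stat2* at 4.51 and 4.63, a difference of 0.12. None of these reached 1.2-fold. Of the 14 members with several probe sets, 10 had probe sets in both directions, and 4 (*Parp14*, *Rsad2*, *Stat2* and *Zbp1*) in 1 direction.

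The third comparison sets STEE-fed SAMP8 against SAMR1, a pair that the authors' tables do not compare directly. The difference was above 0 for 30 of the 35 members, with a median of 0.14, whereas the median of all genes was -0.01. At least 1.2-fold higher were 6 members (17.1%), against 4.44% of all genes, and none was at least 1.2-fold lower, against 2.93% of all genes. Under a mean signal of 5, 5 of 30 members were higher and 0 lower, against 1.64% and 1.89% of such genes. The 6 were *Ifit1* (0.42), *Ifit3* (0.40), *Ifitm3* (0.31), *Usp18* (0.31), *Bst2* (0.30) and *Trim25* (0.28). *Bst2* was at 3.17 in SAMR1, 3.28 in SAMP8 control and 3.47 with STEE. *Irf9*, *Oasl2* and *Gbp3*, at least 1.2-fold higher in SAMP8 control than in SAMR1, differed from SAMR1 by 0.23, 0.22 and 0.18 in the STEE-fed group. The SAMR1 means are those of the strain comparison, so the 2 results are not independent.

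Other genes of the interferon pathway were read in the same way, from lists of 83 symbols of which 79 were found. The 6 ligands found (*Ifnb1*, *Ifng* and 4 *Ifna* genes) differed between the strains by -0.10 to 0.11, with a median of -0.005, and *Ifnb1*, the first interferon made by most cells, was at 3.02 in SAMR1 and 3.06 in both SAMP8 groups. The receptor subunits *Ifnar1*, *Ifnar2* and *Ifngr1* differed by -0.02, 0.05 and 0.01. *Ifngr2*, the signalling chain of the type II receptor, was at 4.87 in SAMR1, 5.15 in SAMP8 control and 5.03 with STEE, a strain difference of 0.28, and *Il10rb*, a subunit of the type III receptor, was at 5.10, 4.89 and 4.81, with a difference of -0.29 between STEE-fed SAMP8 and SAMR1.

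Among 10 genes of JAK-STAT signalling and its inhibitors, 5 were above 0 between the strains. None was at least 1.2-fold higher or lower in any comparison, against 0.923% to 4.44% of all genes, depending on comparison and direction. The kinases *Jak1*, *Jak2* and *Tyk2* differed by 0.21, 0.25 and -0.11. The 10 genes ran from -0.22 (*Ptpn6*) to 0.25, with a median of 0.02. Of 15 genes of upstream sensing, such as *Mb21d1* (cGAS), *Tmem173* (STING) and *Mavs*, 10 were below 0 between the strains, and their median was -0.04. Of 5 other IRF genes, 2 were above 0 between the strains, with a median of -0.04.

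Of 38 further interferon-stimulated genes found, 28 (73.7%) were above 0 between the strains, against 47.1% of all genes, with a median of 0.08, and 7 (18.4%) were at least 1.2-fold higher in SAMP8 control, against 3.68% of all genes. *Ly6a*, a surface antigen of endothelial and stem cells, was at 5.18 in SAMR1, 5.79 in SAMP8 control and 5.64 with STEE, a strain difference of 0.61. The GTPase *Tgtp1* was at 3.60, 4.15 and 4.03, a difference of 0.55, and *B2m*, the light chain of class I MHC molecules, at 7.79, 8.30 and 8.22, a difference of 0.51. *Lgals3bp*, a secreted glycoprotein, differed by 0.45, *Trim30a*, a restraint on inflammatory signalling, by 0.36, *Cmpk2*, a mitochondrial nucleotide kinase, by 0.34 and *Ly6e*, a membrane protein that limits coronavirus entry, by 0.28. With STEE, *Lgals3bp* was lower than in SAMP8 control, at 3.64 against 4.0, a difference of -0.36, and none of the 38 was at least 1.2-fold higher, against 1.1% of all genes.

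**Figure D5:**
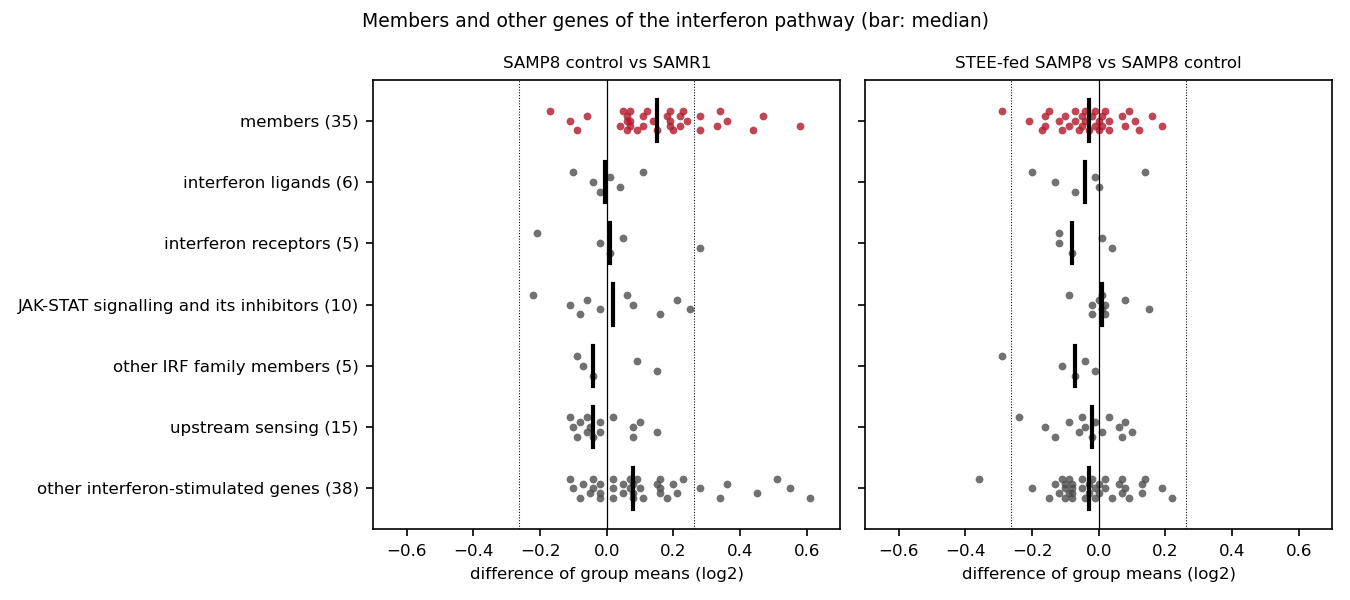
Difference of group means (horizontal axis, log2) of the 35 members in red and of 79 other pathway genes in grey, each point a gene at its brightest probe set, for SAMP8 control vs. SAMR1 and STEE-fed SAMP8 vs. SAMP8 control; bars are medians, dotted lines mark 1.2-fold and list sizes stand in brackets. Between the strains the medians are 0.15 for the members and 0.08 for the other interferon-stimulated genes, and -0.04 for upstream sensing.

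Markers of cells that make or carry these transcripts were set beside the members. The 12 microglial markers, among them *Cx3cr1*, *P2ry12* and *Csf1r*, averaged 6.11 in SAMR1, 6.13 in SAMP8 control and 6.15 with STEE (summed linear signal 1658, 1519 and 1512). None was at least 1.2-fold higher or lower between the strains, against 3.68% and 3.19% of all genes. Microglial *Aif1* was at 5.37, 5.56 and 5.64. The 9 endothelial markers averaged 5.98, 5.97 and 5.98, with *Ly6c1* higher by 0.28 and *Cldn5*, the tight junction protein, lower by -0.28 between the strains. The 8 leukocyte markers averaged 3.91, 3.88 and 3.86, and the 4 erythroid markers 8.38, 8.36 and 8.37. The 7 astrocyte markers averaged 9.06, 9.0 and 8.98. The mean over the members was 4.0, 4.17 and 4.13.

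Markers of other cells did differ. All 6 oligodendrocyte markers had lower means in SAMP8 control, 4 of them at least 1.2-fold, such as *Mog* by -0.63, against 3.19% of all genes. Their summed linear signal was 10170 in SAMR1, 8925 in SAMP8 control and 8653 with STEE. Of 7 choroid plexus markers, 4 were at least 1.2-fold lower in SAMP8 control, against the same 3.19% of all genes. *Ttr*, the thyroxine carrier of the choroid plexus, was at 10.20 in SAMR1, 8.24 in SAMP8 control and 9.33 with STEE, and the summed linear signal of the list was 1270, 383.1 and 723.5. RMA values have no zero, so no marker is listed at 0. Of 8 cortical neuron markers, 7 were above 0 between the strains, with a median of 0.065. The part of these markers in the differences of the members was not tested.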

How the data were processed

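Cortical RNA of 6 mice was measured on Affymetrix mouse PM array strips. The authors computed RMA values in Affymetrix Expression Console and averaged the arrays of a group in Transcriptome Analysis Console (version 4). The deposited values are log2 bi-weight averages of a group, rounded to 2 decimals, for 45077 probe sets in 2 tables, and the SAMP8 control averages of both tables were identical. The tables also hold the authors' fold changes, ANOVA p-values and FDR p-values, which were not used here. The genome build and the annotation of the array are not given in the sources used here. Groups came from the sample titles.

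Differences of group means were taken on the log2 scale with Python 3.11.15, numpy 2.4.6 and pandas 2.3.3; figures used matplotlib 3.10.9. Gene symbol entries were split, and 5694 probe sets without a symbol entered only the counts over probe sets. The calculation was tested on simulated data. The comparison with genes under a mean signal of 5 was added after seeing the data. The members and lists were chosen with earlier results of these data known. Named in full were members at least 1.2-fold different in any comparison, with the 3 of highest signal; genes of the other lists were named where they differed by that much or were the brightest, and some others as examples, chosen after their values were seen. With group averages alone, depth and the spread between mice are unknown, and the number of arrays limits the precision. Some genes of the pathway and marker lists are not reported here by name.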

Additional observations from a re-analysis of the deposited data

How the results depend on the processing

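No value of a single array was used, so no replicate could be left out, and no test was made. No paired analysis was possible because the deposited columns are averages of a group and carry no replicate number. At a fold of 1.1, 19 members were higher and 1 was lower for SAMP8 control vs. SAMR1 (12.4% of all genes in each direction), 2 were higher and 6 lower with STEE against SAMP8 control (7.73% and 7.44%), and 19 were higher and 1 lower for STEE-fed SAMP8 vs. SAMR1 (13.9% and 12.7%). At a fold of 1.5, 0 members were higher in SAMP8 control (0.79% of all genes) or STEE-fed SAMP8 (0.803%) than in SAMR1 and 0 were lower with STEE (0.102%). With a mean log2 signal of at least 5 required, 5 members were left, of which 1 was higher in SAMP8 control (6.05% of such genes) and in STEE-fed SAMP8 (7.59%) than in SAMR1 and 0 were lower with STEE (1.14%), and the median of STEE-fed SAMP8 vs. SAMR1 was 0.08. Probe sets whose ID marks possible matches to several transcripts are those with an s, x or a. Without them 25 members were left, of which 4 were higher for SAMP8 control vs. SAMR1, against 3.6% of all genes. *Irf9*, *Oasl2*, *Gbp3* and *Trim25* had only marked probe sets, so their strain differences could not be read in this way. When the probe sets of each gene were averaged, 0 members were lower with STEE (0.59% of all genes), *Eif2ak2* among them at -0.01, and *Trim25* differed from SAMR1 by 0.17 in SAMP8 control and 0.15 with STEE. Over all 57 probe sets, the median was 0.09 for SAMP8 control vs. SAMR1, with 1 probe set lower (3.43% of all probe sets), and 0.07 for STEE-fed SAMP8 vs. SAMR1. Probe sets with a single symbol, and subtraction of the median of all probe sets, moved no count by over 1.5 times. No called member changed direction at the value taken for its gene, whereas the 2 dimmer probe sets of *Eif2ak2* differed by 0.04 and 0.23 with STEE against -0.29 at the brightest. The causes of these moves were not tested beyond the smaller number of members or the other fold.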
